A study of Mus musculus with 12 samples.

Results

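Peroxiredoxins, superoxide dismutases and catalase are the enzymes that remove superoxide and hydrogen peroxide. The genes examined were Prdx1, Prdx2, Prdx3, Prdx4, Prdx5, Prdx6, Sod1, Sod2, Sod3 and Cat, chosen by name as 10 genes of this chemistry. Of the 50433 gene rows for renal tubular epithelial cells (TECs) and the 50434 rows for neutrophils (PMN), 9 belonged to these genes in each cell type, and the level of Prdx4 was not analysed here. All 9 passed the filter on low counts in TECs, and 8 passed it in PMN, where Sod3 had no count.

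The samples were wild-type mice in which acute kidney injury had been induced by temporary clamping of the renal vessels (ischemia-reperfusion injury, IRI). The study's methods give male C57BL/6J mice of 8 to 12 weeks and clamping of both renal pedicles for 35 minutes. Every group had undergone IRI, and no sham group was among these libraries. Mice received either glutamine, given intravenously as the dipeptide alanyl-glutamine, or the saline vehicle, and a legend of the study places this 15 minutes after reperfusion for the TEC experiment. Cells were taken 24 hours after IRI. TECs were sorted from the kidney as CD45-negative and Prominin-1-positive cells, and PMN came from blood. Each of the 4 groups (TECs with vehicle, TECs with glutamine, PMN with vehicle, PMN with glutamine) held 3 libraries, 12 in all. The vehicle TEC libraries carry the numbers 3, 4 and 5 in their labels and the glutamine TEC libraries 1, 2 and 3. PMN libraries were numbered in the order of their records, so these numbers are names only. The labels do not say that the libraries came from separate mice, and p-values measure the spread between libraries, which may be technical.

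Superoxide is turned into hydrogen peroxide by the superoxide dismutases, with Sod1 in the cytosol, Sod2 in the mitochondrial matrix and Sod3 outside the cell. Hydrogen peroxide is then reduced by catalase in peroxisomes and by the peroxiredoxins, which use a reactive cysteine that thioredoxin restores. Prdx1 and Prdx2 are cytosolic, Prdx3 is mitochondrial, Prdx5 is found in several compartments, and Prdx6 is the member that relies on glutathione instead of thioredoxin. The transcription factor NRF2 drives Prdx1 and several genes of the thioredoxin and glutathione systems through antioxidant response elements, and Sod2 is a classical target of NF-kappaB. The kidney's proximal tubule is rich in mitochondria and peroxisomes.

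The stretches ahead of 3 genes are printed because the results turn on how Prdx1 differed from Prdx5 and Sod1, the other abundant members. Each is the part of the 250-base window before the RefSeq start (RefSeq, GRCm38.p6) that also lies ahead of the gene in GENCODE M21, written 5′ to 3′ on the gene's strand. The window of Prdx1 is chr4:116685349-116685543 on the plus strand, that of Prdx5 is chr19:6910107-6910356 on the minus strand, and that of Sod1 is chr16:90220512-90220753 on the plus strand. Capitals mark matches, on either strand, to the antioxidant response element core TGACNNNGC, to the AP-1 site TGACTCA and to TATAAA.
Prdx1: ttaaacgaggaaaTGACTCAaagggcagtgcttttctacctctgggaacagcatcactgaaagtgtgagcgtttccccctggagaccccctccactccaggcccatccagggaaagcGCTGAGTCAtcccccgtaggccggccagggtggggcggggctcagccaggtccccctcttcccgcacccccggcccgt
Prdx5: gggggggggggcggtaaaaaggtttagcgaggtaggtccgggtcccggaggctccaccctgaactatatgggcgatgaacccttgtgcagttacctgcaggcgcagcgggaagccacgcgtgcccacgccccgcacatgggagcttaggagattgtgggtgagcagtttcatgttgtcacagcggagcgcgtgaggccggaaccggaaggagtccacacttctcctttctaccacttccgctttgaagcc
Sod1: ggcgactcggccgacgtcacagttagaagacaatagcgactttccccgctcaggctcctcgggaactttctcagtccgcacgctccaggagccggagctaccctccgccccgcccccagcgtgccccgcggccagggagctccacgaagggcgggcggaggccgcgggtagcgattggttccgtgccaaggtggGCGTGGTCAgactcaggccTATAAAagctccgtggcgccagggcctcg
Prdx1 held 1 match to the antioxidant response element core, read on the reverse strand as TGACTCAGC and beginning 133 bases before the RefSeq start. It held 2 AP-1 matches, of which 1 lies within that core, so these are overlapping letters and not separate stretches. Sod1 held 1 core match, TGACCACGC on the reverse strand, beginning 56 bases before the RefSeq start, and TATAAA beginning 37 bases before it. Prdx5 held none of these letter strings. Over 32851 RefSeq promoter windows of 250 bases, 10.2% held the core, 4.46% the AP-1 site and 12.4% TATAAA on either strand. Prdx1 also had TATAAA beginning 29 bases before the RefSeq start, in the 55 bases left out here. Of the other members in the promoter table (Prdx2, Prdx3, Prdx4, Sod2 and Cat), none matched the core or the AP-1 site in its 250 bases. Prdx6 and Sod3 were not analysed here for these letters. A match is a run of letters and not a measured binding site, and no binding was measured here.

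In the sorted TECs, Prdx1 was lower in all glutamine libraries than in any vehicle library, and the other 8 genes overlapped between the groups. Prdx1 had 2477, 2920 and 2108 CPM (counts per 1000000 counts, scaled by edgeR's TMM method) in vehicle replicates 3, 4 and 5. It had 1322, 1180 and 1389 CPM in glutamine replicates 1, 2 and 3. The groups did not overlap, and the lowest vehicle library lay well above the highest glutamine library. The mean was 2502 ± 407 CPM over vehicle and 1297 ± 107 CPM over glutamine libraries (SD, n = 3). The fitted level was 48.2% lower, and the log2 fold change was -0.95 (standard error 0.19, 95% confidence interval -1.36 to -0.54). Its unadjusted p-value in edgeR's quasi-likelihood test was 0.000357, the 35th smallest of 14734 genes, and its Benjamini-Hochberg adjusted p-value was 0.148. The change therefore did not pass the threshold of 0.05 over all genes tested. An exact two-sided permutation test of this gene alone gave p = 0.1, the smallest that 3 libraries against 3 allow. With DESeq2's Wald test the adjusted p-value was 0.00153, and without the filter on low counts the quasi-likelihood test gave 0.00023. Without that filter the log2 fold change (-0.975) and standard error (0.195) were close to the main fit, but the unadjusted p-value was 5.96e-07. The other settings that kept all libraries did not pass 0.05. Among them limma-voom gave 0.16 and upper-quartile scaling 0.146. The lowest was 0.0938, with edgeR's newer quasi-likelihood method. The highest was 0.299, once predicted and Rik genes and sensory receptors were dropped. Fits that left out 1 library gave log2 fold changes from -1.06 to -0.82 and adjusted p-values from 0.0645 to 0.499.

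**Figure D1:**
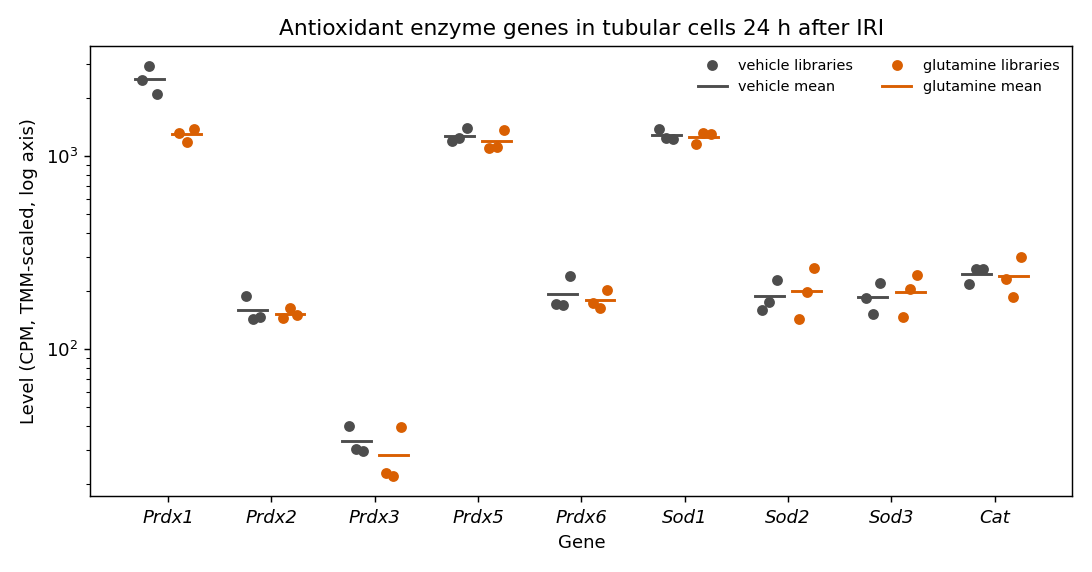
Level of each gene in each TEC library in CPM on a log axis, with vehicle in grey, glutamine in orange and a bar at each group's mean. Prdx1 is the gene whose groups do not overlap, from 2108 to 2920 CPM with vehicle and from 1180 to 1389 CPM with glutamine.

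The other peroxiredoxins overlapped between the groups in TECs. Prdx2, the close cytosolic relative of Prdx1, had 188, 144 and 146 CPM with vehicle and 145, 164 and 150 CPM with glutamine, with a log2 fold change of -0.06 (95% confidence interval -0.48 to 0.36). Prdx3, the mitochondrial member, was the least abundant, at 40.0, 30.5 and 29.8 CPM with vehicle and 22.8, 22.1 and 39.6 CPM with glutamine. Its groups overlapped through glutamine replicate 3, and its log2 fold change of -0.24 had the widest interval, from -0.86 to 0.38. Without glutamine replicate 3 it was -0.57 (unadjusted p = 0.0607, edgeR quasi-likelihood test), and without vehicle replicate 3, glutamine replicate 1 or glutamine replicate 2 it was between -0.11 and -0.10. The counts behind Prdx3 ranged from 110 to 405, far below the 25112 counts of Prdx1 in vehicle replicate 3. Prdx5 had 1205, 1236 and 1398 CPM with vehicle and 1107, 1122 and 1374 CPM with glutamine, a log2 fold change of -0.09 (95% confidence interval -0.48 to 0.30). Prdx6 had 172, 168 and 239 CPM with vehicle and 174, 164 and 203 CPM with glutamine, and vehicle replicate 5 alone set the higher vehicle mean (log2 fold change -0.10, 95% confidence interval -0.55 to 0.35).

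The 3 superoxide dismutases lay close to equal in both groups. Sod1 had 1379, 1246 and 1233 CPM with vehicle and 1154, 1320.4 and 1297 CPM with glutamine, the narrowest spread of the 9 genes, and its log2 fold change was -0.03 (95% confidence interval -0.40 to 0.34). Sod2 had 159, 175 and 229 CPM with vehicle and 143, 197 and 264 CPM with glutamine, so that each group held both low and high libraries (log2 fold change 0.10, 95% confidence interval -0.44 to 0.64). Sod3 had 184, 153 and 220 CPM with vehicle and 147, 206 and 244 CPM with glutamine (log2 fold change 0.10, 95% confidence interval -0.41 to 0.60). Catalase, encoded by Cat, had 218, 261 and 260 CPM with vehicle and 231, 186 and 299 CPM with glutamine, and the lowest and the highest library were both glutamine libraries (log2 fold change -0.04, 95% confidence interval -0.51 to 0.42). For these genes the intervals leave room for changes of moderate size in either direction, and the directions of Prdx2, Prdx6, Sod1, Sod2, Sod3 and Cat turned in at least 1 of the fits with a library left out or with other gene sets.

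**Figure D2:**
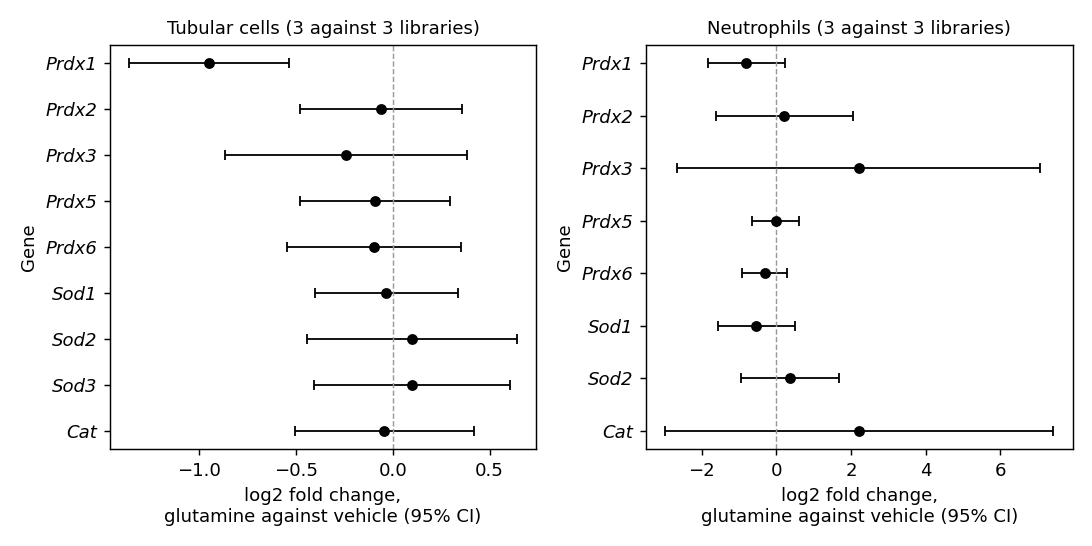
log2 fold change of each gene with glutamine against vehicle (points) and its 95% confidence interval (bars), in TECs on the left and PMN on the right, with different horizontal scales. In TECs the interval of Prdx1, from -1.36 to -0.54, is the one that does not include 0, and in PMN every interval includes 0.

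Counted over the TEC members, 1 of 9 (Prdx1) had an unadjusted p-value below 0.05 and a lower level with glutamine, against 5.58% of all tested genes in that direction. In the other direction it was 0 of 9, against 7.32%, and in either direction 12.9% of tested genes had such a p-value. Groups did not overlap, with glutamine lower, for 1 of 9 members and for 9.81% of all tested genes. With glutamine higher it was 0 of 9 members and 9.01% of tested genes. With glutamine 7 of 9 members had a log2 fold change below 0, against 49.4% of all tested genes, and the median over the members was -0.06 against 0.01 over all genes. After adjustment, edgeR's quasi-likelihood test called none of the 9 at 0.05, and it called 0% of all tested genes. The count was 1 of 9, again Prdx1, with DESeq2, which called 2.37% of the genes it gave an adjusted p-value. It was 1 of 9 in the quasi-likelihood test without a filter on low counts, which called 1.37% of genes, and 0 of 9 with limma-voom, which called 0%.

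Ratios within a library do not depend on how libraries are scaled. The counts of Prdx1 were 2.06, 2.36 and 1.51 times those of Prdx5 in the vehicle TEC libraries and 1.19, 1.05 and 1.01 times those of Prdx5 in the glutamine TEC libraries. Against Sod1 the ratios were 1.80, 2.34 and 1.71 with vehicle and 1.15, 0.894 and 1.07 with glutamine. Both ratios were higher in every vehicle library than in any glutamine library. Prdx1 made up 60.7%, 64.9% and 53.8% of the peroxiredoxin counts with vehicle and 47.7%, 44.5% and 44.0% with glutamine. The share of Prdx5 was 29.5%, 27.5% and 35.7% with vehicle and 40.0%, 42.3% and 43.6% with glutamine, so that Prdx1 and Prdx5 had nearly equal counts with glutamine. The summed level of the 8 other members was 3545, 3414 and 3756 CPM with vehicle and 3124, 3383 and 3870 CPM with glutamine, which overlapped.

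**Figure D3:**
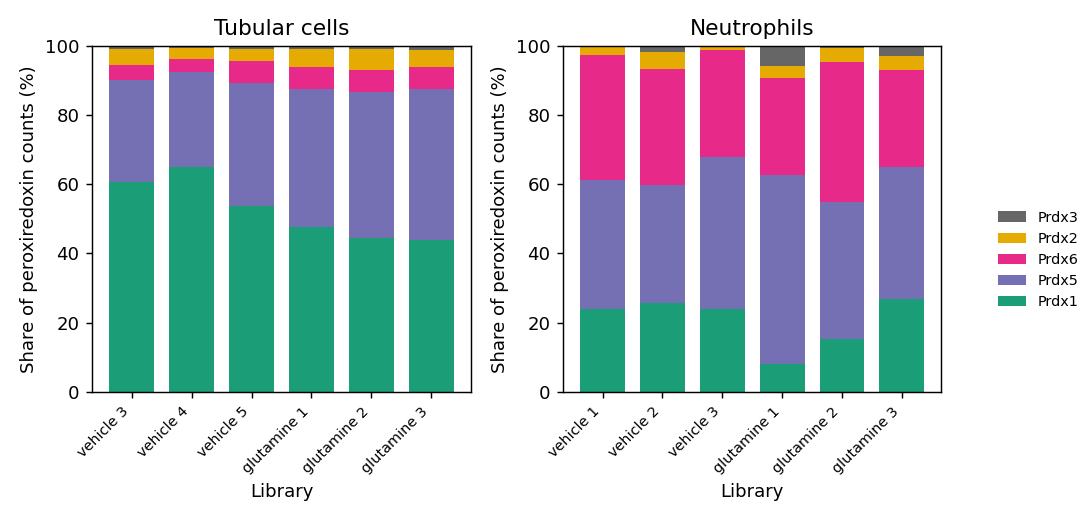
Share of each peroxiredoxin in the summed peroxiredoxin counts of each library (%), for TECs on the left and PMN on the right. Prdx1 makes up 53.8% to 64.9% in vehicle TEC libraries and 44.0% to 47.7% in glutamine TEC libraries, and 8.0% to 26.8% across the PMN libraries.

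Levels of different genes were compared per kilobase, using the median length of each gene's coding transcripts in GENCODE M21. In TECs the order of mean levels was Sod1 (1984 CPM per kilobase), Prdx5 (1643), Prdx1 (1198), Cat (143), Prdx6 (111), Prdx2 (101), Sod3 (51.5), Sod2 (33.2) and Prdx3 (20.8 CPM per kilobase). These means take vehicle and glutamine libraries together, although Prdx1 differed between them (means of 2502 CPM with vehicle and 1297 CPM with glutamine, before division by length). Over the 6 libraries Sod1 overlapped with Prdx5 and Prdx5 with Prdx1, while the lowest Prdx1 library, at 744 CPM per kilobase, lay above the highest Cat library at 176. Prdx2 and Sod3 did not overlap, and Cat with Prdx6, Prdx6 with Prdx2, Sod3 with Sod2, and Sod2 with Prdx3 did. Which transcript is used changes this order for genes with several transcripts. Prdx1 lay between 828 and 2166 CPM per kilobase with its longest and shortest coding transcript, and Prdx5 between 983 and 2476.

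In PMN the levels of the same genes were further apart from library to library, and the groups of every member overlapped. Prdx1 had 577, 515 and 471 CPM with vehicle and 155, 259 and 483 CPM with glutamine. Glutamine replicates 1 and 2 lay below all vehicle libraries, and glutamine replicate 3 lay among them. The means were 521 ± 53.1 CPM and 299 ± 168 CPM (SD, n = 3), with a log2 fold change of -0.80 (standard error 0.43, 95% confidence interval -1.83 to 0.23) and an unadjusted p-value of 0.108 in edgeR's quasi-likelihood test. Without glutamine replicate 3 the log2 fold change was -1.33 and the unadjusted p-value 0.0101, with an adjusted p-value of 0.980. Without glutamine replicate 1, the library lowest in Prdx1, the log2 fold change was -0.51 and the unadjusted p-value 0.198. DESeq2 gave an unadjusted p-value of 0.0391 for Prdx1 and limma-voom 0.0465, with adjusted p-values of 0.482 and 0.774. Over all its alternatives the adjusted p-value lay between 0.482 and 1.0. Whether the difference for Prdx1 was of another size in PMN than in TECs was not tested, since the tables were made and scaled separately.

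The counts of Prdx1 in PMN were 0.638, 0.750 and 0.542 times those of Prdx5 with vehicle and 0.146, 0.382 and 0.702 times with glutamine, so that the groups overlapped. Prdx1 was 23.9%, 25.7% and 23.8% of the peroxiredoxin counts with vehicle and 8.0%, 15.2% and 26.8% with glutamine. Prdx5 and Prdx6 made up most of the rest. Prdx5 had 904, 687 and 868 CPM with vehicle and 1056, 677 and 688 CPM with glutamine (log2 fold change -0.02, 95% confidence interval -0.66 to 0.61). Prdx6 had 871, 671 and 611 CPM with vehicle and 546.1, 686 and 504 CPM with glutamine (log2 fold change -0.31, 95% confidence interval -0.91 to 0.29, and -0.50 to -0.17 over fits that left out 1 library). Prdx2 had 63.1, 99.2 and 20.9 CPM with vehicle and 65.5, 71.3 and 75.9 CPM with glutamine, and the vehicle libraries held both the highest and the lowest value.

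Sod1 in PMN had 364, 465 and 441 CPM with vehicle and 148, 453 and 275 CPM with glutamine (log2 fold change -0.53, 95% confidence interval -1.55 to 0.49). Glutamine replicate 2 lay among the vehicle libraries, and without it the log2 fold change was -1.05 with an unadjusted p-value of 0.0393 and an adjusted p-value of 1.0. Without glutamine replicate 1, the lowest library, it was -0.23 with an unadjusted p-value of 0.518. Sod2 had 374, 491 and 332 CPM with vehicle and 989, 279 and 282 CPM with glutamine. Glutamine replicate 1 was far above the other 5 libraries, and without it the log2 fold change went from 0.37 to -0.53 (unadjusted p = 0.131, quasi-likelihood test). Sod3, the extracellular enzyme, had 0 counts in all 6 PMN libraries, and a count of 0 allows up to 3 counts per library, or 0.137 to 0.158 CPM on the scale used here.

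Prdx3 and Cat varied most in PMN. Prdx3 had 0.0501, 33.4 and 4.0 CPM with vehicle and 111, 9.71 and 51.7 CPM with glutamine, which rest on 1, 732 and 84.5 estimated counts and on 2109, 206 and 1031 estimated counts. Its highest library was 2216 times its lowest, the groups overlapped, and the log2 fold change of 2.20 had a standard error of 2.04. It was 4.05 with limma-voom, 4.82 without vehicle replicate 2 and 1.29 without glutamine replicate 1. Cat had 1.0, 34.6 and 5.19 CPM with vehicle and 90.4, 0.0943 and 99.5 CPM with glutamine, where glutamine replicate 2 rested on 2 counts and replicate 1 on 1716. Its log2 fold change was 2.22 with a standard error of 2.17, and it was 0.70 with limma-voom and 4.35 without vehicle replicate 2. Such spread was common in these libraries. Of the tested PMN genes with a mean of 20 to 100 CPM, 70% had a highest library more than 10 times the lowest (2741 of 3913), against 0.557% of such genes in TECs (25 of 4486). Above a mean of 100 CPM it was 9.78% in PMN and 0.542% in TECs.

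**Figure D4:**
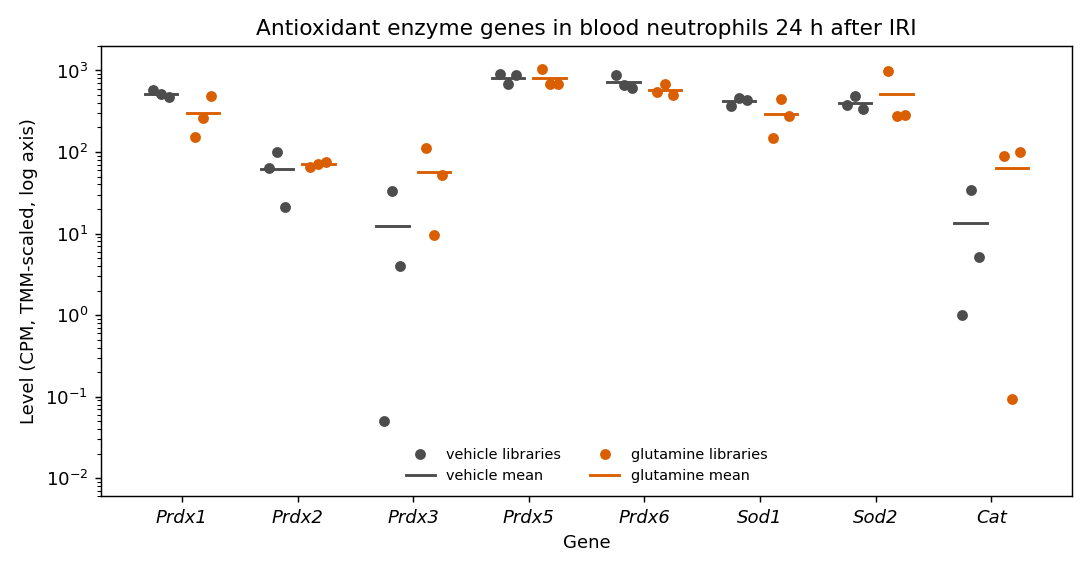
Level of each gene in each PMN library in CPM on a log axis, with vehicle in grey, glutamine in orange and a bar at each group's mean; Sod3, at 0 in all libraries, is not drawn. The widest spreads within a group are those of Prdx3 with vehicle (0.0501 to 33.4 CPM) and Cat with glutamine (0.0943 to 99.5 CPM). The groups of all 8 genes overlap.

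In PMN 0 of 8 members had an unadjusted p-value below 0.05 in the quasi-likelihood test, against 3.33% of the 10130 tested genes (1.28% lower and 2.04% higher with glutamine), and 0 of 8 had an adjusted p-value below 0.05, against 0%. At an unadjusted p-value below 0.05 DESeq2 and limma-voom each gave 1 of 8, Prdx1, against 9.16% and 6.44% of the genes these tools tested. At the adjusted threshold both gave 0 of 8, against 2.5% of genes with DESeq2 and 0% with limma-voom. All 8 overlapped between groups, whereas 4.63% of tested genes did not overlap with glutamine lower and 5.87% with glutamine higher. Log2 fold changes were below 0 for 4 members and above 0 for 4, against 50% of tested genes below 0. Per kilobase the order of mean levels in PMN was Prdx5 (1077 CPM per kilobase), Sod1 (558), Prdx6 (387), Prdx1 (258), Sod2 (78.1), Prdx2 (42.7), Prdx3 (23.7) and Cat (22.7 CPM per kilobase). Only Prdx5 stood clear of its neighbour over the 6 libraries, and each of the others overlapped with the next.

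The partners of the peroxiredoxins were read from the same fits. Of the 10 genes of the thioredoxin cycle and of peroxide repair, 7 had a log2 fold change below 0 in TECs and 3 above 0, with a median of -0.12, against 49.4% below 0 and a median of 0.01 over all tested genes. At an unadjusted p-value below 0.05, 2 of the 10 were lower and 0 higher, against 5.58% and 7.32% of all tested genes. These were Txn1, the cytosolic thioredoxin that restores Prdx1, and Srxn1, the sulfiredoxin that repairs peroxiredoxins oxidized too far. Txn1 had 436, 418 and 321 CPM with vehicle and 248, 199 and 241 CPM with glutamine (log2 fold change -0.77, standard error 0.19, edgeR quasi-likelihood test, adjusted p = 0.204). Srxn1 had 722, 1000.2 and 766 CPM with vehicle and 640, 356 and 279 CPM with glutamine, with an adjusted p-value of 0.233 from the same test. Neither gene overlapped between the groups, as for Prdx1 and for 9.81% of all tested genes with glutamine lower. Txn2 and Txnrd2, the mitochondrial partners of Prdx3, had log2 fold changes of -0.03 and -0.08; they are named here after their values were seen.

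Of 8 genes that hold the glutathione peroxidases and the glutathione transferase Gstp1, which reactivates Prdx6, 6 had a log2 fold change above 0 in TECs and 2 below 0, with a median of 0.19. At an unadjusted p-value below 0.05, 1 of the 8 was lower and 2 were higher, against 5.58% and 7.32% of all tested genes. Gstp1 had 325, 298 and 290 CPM with vehicle and 207, 156 and 218 CPM with glutamine (log2 fold change -0.65, adjusted p = 0.233 from the same test). Gpx6 had 9.08, 12.6 and 8.56 CPM with vehicle and 25.3, 14.5 and 15.02 CPM with glutamine (log2 fold change 0.86, adjusted p = 0.331). Gpx3, the secreted plasma glutathione peroxidase, was the third of these and is named after its values were seen. It had 16833, 11966 and 19238 CPM with vehicle and 22186, 28440 and 19059 CPM with glutamine, so that its groups overlapped.

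Of 9 NRF2 targets tested, 7 had a log2 fold change below 0 in TECs and 2 above 0, with a median of -0.43. At an unadjusted p-value below 0.05, 4 were lower and 2 higher, against 5.58% and 7.32% of all tested genes, and edgeR's quasi-likelihood test called none after adjustment. Gsr, the glutathione reductase, had 469, 693 and 493 CPM with vehicle and 330, 208 and 242 CPM with glutamine (log2 fold change -1.08, standard error 0.23, adjusted p = 0.163). Hmox1, the heme oxygenase, went the other way, with 53.5, 91.1 and 136 CPM with vehicle and 198, 258 and 400 CPM with glutamine (log2 fold change 1.61, standard error 0.34, adjusted p = 0.163). The others, named after their values were seen, were Gclm (log2 fold change -0.73), Srxn1 (-0.96) and Nqo1 (-0.77) on the lower side and Osgin1 (1.01) on the higher side. Srxn1 and Txnrd1 belong to both this list and the thioredoxin list, so the lists are not separate counts. The study itself had named Txn1, Srxn1, Gsr and Hmox1 from these libraries, so the lists that hold them were not chosen independently of the data.

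**Figure D5:**
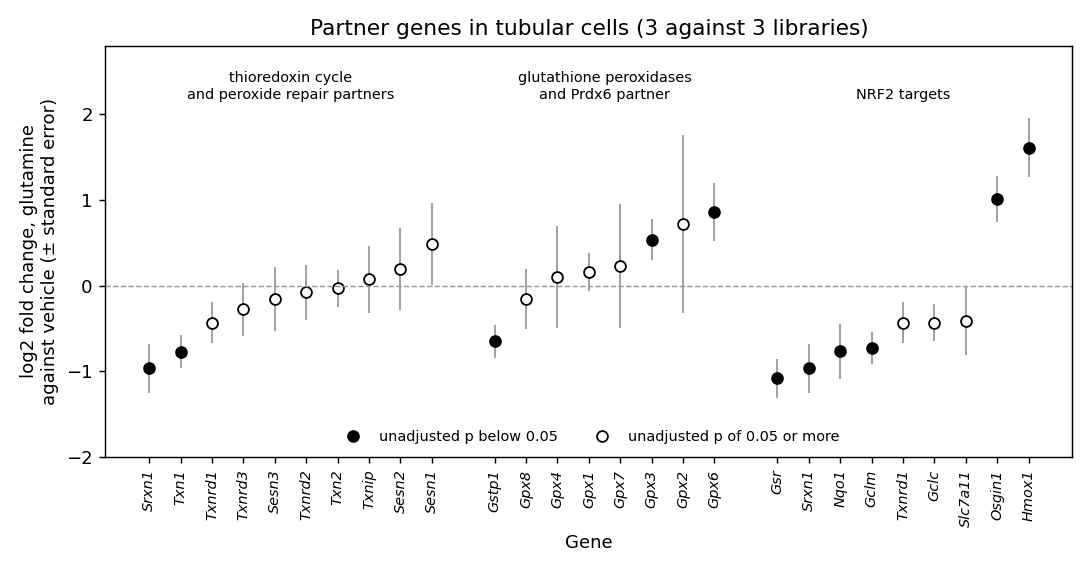
log2 fold change with glutamine against vehicle in TECs (± standard error) for the genes of 3 partner lists, with filled points at an unadjusted p-value below 0.05. Srxn1, Txn1, Gstp1, Gsr, Nqo1 and Gclm lie below 0 and Gpx6, Gpx3, Osgin1 and Hmox1 above 0 among the filled points, and none has an adjusted p-value below 0.05.

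The remaining lists held no TEC gene at an unadjusted p-value below 0.05, against 5.58% of all tested genes on the lower side and 7.32% on the higher side. Over all tested genes 49.4% had a log2 fold change below 0, with a median of 0.01. Among 6 genes of copper, zinc and manganese supply to the superoxide dismutases, 4 were below 0 and 2 above 0, led by Atox1, a copper chaperone (log2 fold change -0.39, standard error 0.19), and Slc39a8, a metal importer (-0.62, standard error 0.39). Among 15 genes of peroxisome biogenesis, the compartment of catalase, 11 were below 0 and 4 above 0, with a median of -0.24. Pex5, the import receptor, had a log2 fold change of -0.53 (standard error 0.29). Of 9 peroxisomal and related oxidases that make hydrogen peroxide, 5 were below 0 and 4 above 0, with Dao at 0.59 and Hao2 at 0.48. Of 10 NF-kappaB targets, read because Sod2 is one, 3 were below 0 and 7 above 0, with Relb at 0.45 and Cxcl1 at 0.49.

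In PMN, Birc3 and Cxcl1 of the 11 NF-kappaB targets had the smallest p-values, 9 of the list had a log2 fold change above 0 and 2 below 0 (50% of all tested genes lay below 0), and 3 were higher at an unadjusted p-value below 0.05, against 2.04% of all tested genes. The third was Nfkbia, named after its values were seen. Birc3 had 234, 252 and 351 CPM with vehicle and 906, 430 and 435 CPM with glutamine (log2 fold change 1.08). Cxcl1 had 189, 123 and 218 CPM with vehicle and 543.9, 249 and 327 CPM with glutamine (log2 fold change 1.08). Glutamine replicate 1 was highest for both, and it was also the library with the high Sod2. Other genes of the list were not highest there. Tnfaip3 had 1351 CPM in glutamine replicate 1 and 1818 CPM in glutamine replicate 3, and Nfkb1 had 77.3 and 160 CPM. Ccl2 had 302 CPM in glutamine replicate 1 and 552 CPM in vehicle replicate 1. A link between this list and Sod2 was not tested. In the thioredoxin list Sesn3 had 31.8, 1.19 and 18.7 CPM with vehicle and 0, 0.0943 and 0 CPM with glutamine, and Txn2 had 30.4, 48.0 and 63.9 CPM with vehicle and 117, 106 and 134 CPM with glutamine. Among NRF2 targets Gclc had 86.5, 8.25 and 5.33 CPM with vehicle and 0, 0.189 and 0 CPM with glutamine, and Hmox1 had a log2 fold change of -0.52. Sesn3 was the 1 of 8 thioredoxin genes lower at an unadjusted p-value below 0.05, and Gclc the 1 of 8 NRF2 targets, against 1.28% of all tested genes. In both lists 0 were higher, against 2.04%. The counts behind Sesn3 and Gclc with glutamine were near 0, so no fold is given. After adjustment no gene of the 7 lists passed 0.05 in PMN by edgeR.

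The other PMN lists held 0 genes at an unadjusted p-value below 0.05, against 3.33% of all tested genes. Gstp1 (log2 fold change -0.76) and Gpx4 (0.10) led the glutathione list, and Atox1 (-0.80) that of metal supply together with Slc31a1, a copper importer, which had 0.401, 179 and 0.476 CPM with vehicle and 210, 80.8 and 43.0 CPM with glutamine. Pex5 (-0.83) led the peroxisome list together with Pex6, which had 0, 0 and 36.0 CPM with vehicle and 0, 0.943 and 1.40 CPM with glutamine. Among the oxidases Xdh had a log2 fold change of 0.91 (standard error 0.44), and Hao2 had 1.80, 0 and 6.76 CPM with vehicle and 0.211, 0 and 3.86 CPM with glutamine. The values of Slc31a1, Pex6 and Hao2 differed so much within a group that no fold is given.

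The genes whose levels followed those of Prdx1 most closely over the 6 TEC libraries, among 2983 genes with a mean of at least 50 CPM, were Polr2e (Pearson r 0.992 of log2 CPM), Rab10 (0.990), Khsrp (0.990) and 2610001J05Rik (0.989). All genes were read from the same 6 libraries, which fall into 2 treatment groups and differ in depth, so these are descriptions. The 7 other members above that level had r from -0.30 for Sod3 to 0.32 for Prdx5, and Prdx3, below it, was not compared. In PMN the closest of 3074 genes were Polr2m (0.993), Selenof (0.985), Tex261 (0.983) and Frrs1 (0.981), and among the members Sod1 came closest (0.667).

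Depth and cell makeup differed between libraries, and their part in the levels of the members was not tested. TEC libraries held 5397370 to 10223461 counts, with glutamine replicate 2 the shallowest, and PMN libraries 20225246 to 21878446 counts. Predicted, Rik and sensory receptor genes took 17.5%, 20.8% and 23.3% of the counts in vehicle TEC libraries and 27.8%, 26.3% and 30.8% in glutamine TEC libraries. Without these genes the log2 fold change of Prdx1 was -0.89. Its unadjusted p-value in edgeR's quasi-likelihood test was then 0.000363 and its adjusted p-value 0.299, against 0.148 in the main fit. In the bulk RNA of sorted cells, fewer cells of a type and less RNA per cell cannot be told apart.

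The sort marker Prom1 was at 64.6 to 83.5 CPM in TECs and Ptprc, the gene of CD45, at 0.102 to 2.74 CPM. Markers of other cells were present. Neutrophil markers summed to 102 to 243 CPM with vehicle and 119 to 254 CPM with glutamine. Endothelial markers summed to 166 to 246 CPM with vehicle and 185 to 241 CPM with glutamine. Of 5 markers of injured proximal tubule, 1 was lower with glutamine at an unadjusted p-value below 0.05, namely Havcr1, with 793, 541 and 106 CPM with vehicle and 94.1, 49.4 and 26.2 CPM with glutamine. At this threshold 5.58% of all tested genes were lower and 7.32% higher, which is the background for the marker counts here. The summed level of these 5 was 2202 to 5021 CPM with vehicle and 2348 to 2745 CPM with glutamine. Of 7 proximal tubule markers 3 were higher at the same threshold, and the sum of the 7 was 1975 to 3221 CPM with vehicle and 2768 to 3860 CPM with glutamine. All 3 distal tubule markers were higher at that threshold, with sums of 64.6 to 120 CPM and 109 to 213 CPM. So were Slc12a1, 1 of 2 markers of the thick ascending limb, with 38.3, 44.96 and 38.0 CPM against 53.0, 143 and 104 CPM, and Lyz2, 1 of 7 macrophage and monocyte markers, with 2.56, 1.61 and 1.12 CPM against 4.44, 12.5 and 3.95 CPM. The sums of these lists were 1035 to 2027 CPM with vehicle and 1279 to 2253 CPM with glutamine for the thick ascending limb, and 22.5 to 42.9 CPM and 28.9 to 66.5 CPM for macrophages and monocytes. Erythroid genes, which accompany red cells rich in Prdx2 and Cat, summed to 1336, 829 and 4419 CPM with vehicle and 1620, 6741 and 998 CPM with glutamine, so that the libraries highest in them were vehicle replicate 5 and glutamine replicate 2. Their part in the levels of the members was not tested.

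In PMN the neutrophil markers summed to 30144 to 52136 CPM with vehicle and 22035 to 71262 CPM with glutamine. Of these 8 markers, Mmp9 was higher with glutamine at an unadjusted p-value below 0.05, as were 2.04% of all tested genes, with 574, 553 and 525 CPM against 1343, 743 and 1307 CPM. The leukocyte gene Ptprc was also higher, with 564, 317 and 569 CPM against 754, 819 and 1150.5 CPM. Macrophage and monocyte markers were present at 5236 to 9016 CPM and 5271 to 10919 CPM, including C1qa at 287 to 2572 CPM. Glutamine replicate 3 had the lowest neutrophil and the highest macrophage and monocyte sum, and it was also the glutamine library with the highest Prdx1. Glutamine replicate 1 had the highest neutrophil sum. Vehicle replicate 1 held 1025 CPM of the kidney gene Umod, against 0.613 to 33.4 CPM in the other libraries, and vehicle replicate 2 held 1263 CPM of endothelial markers. The part of these cells in the members' values was not tested.

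Prdx1 lies on chromosome 4 from 116685544 to 116700822 in GENCODE M21 on GRCm38 and overlaps no other annotated gene. Prdx5, on chromosome 19 from 6906697 to 6910106, overlaps Trmt112 on the opposite strand by 409 bases. Sod1, on chromosome 16 from 90220754 to 90226329, overlaps Scaf4 by 650 bases. Prdx2, on chromosome 8 from 84969587 to 84974834, overlaps Junb by 351 bases and Rnaseh2a by 181 bases. Whether reads were assigned by strand is not given in the sources used here, so reads of these stretches cannot be told apart. Prdx3 lies on chromosome 19 (60864051 to 60874556), Prdx6 on chromosome 1 (161240112 to 161251219), Sod2 on chromosome 17 (13006846 to 13040063), Sod3 on chromosome 5 (52363791 to 52371418) and Cat on chromosome 2 (103453849 to 103485160), none overlapping another gene. Near-identical copies of Prdx1, Prdx2, Prdx6 and Sod1 had at most 5.97 estimated counts in any TEC library. In any PMN library they had at most 22.9. The copies of Prdx1 had 0 counts in TECs, so adding them could not test its log2 fold change, which stayed at -0.95.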

How the data were processed

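The authors deposited, per gene symbol, estimated counts from Salmon for TECs and PMN, not normalized. The submitters' processing notes name Trim Galore 0.6.4, Salmon 1.0.0, DESeq2 and mm10, and the labels of both cell types give the same protocol, single-end reads of 50 bases from cDNA primed on the polyA tail. The PMN table, whose deposited values fall under another unit until decoded, had been altered by a spreadsheet program; extra points and dates were turned back into estimated counts, and the 2 columns of each library were averaged. What these columns are is not given in the sources used here, and they leave it unclear whether the single-end protocol holds for PMN. Estimated counts were rounded. The main test was edgeR 4.0.16 (R 4.3.3), the quasi-likelihood test with TMM scaling and the default expression filter, fitted over all genes of each table and adjusted by Benjamini-Hochberg. Standard errors came from the fold change and the F statistic. DESeq2 1.42.0, limma 3.58.1, other scalings and filters, and fits without each library were alternatives. The methods name DESeq2 for these data. Motifs were searched on both strands. The members and the gene lists were chosen with earlier results of these data known. The text names all members, the 2 genes of each list with the smallest p-value per cell type, and the 5 genes most like Prdx1. Of the genes this rule covers, some are not reported here. Of the listed partner and marker genes, Atp7a, G6pdx, Alas2 and Ahsp were not analysed here.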

Additional observations from a re-analysis of the deposited data

How the results depend on the processing

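Of 135 log2 fold changes of members recomputed in TECs under alternatives, 122 kept their direction and their side of the threshold, 2 newly passed it (Prdx1 without the filter on low counts, adjusted p = 0.00023, and with DESeq2, adjusted p = 0.00153) and 11 changed direction; in PMN it was 127 of 134, 0 and 7. The number of all TEC genes with an adjusted p-value below 0.05 was 0 in the main test, 398 without the filter (290 higher, 108 lower), 308 with DESeq2 (235 higher, 73 lower), 11 with edgeR's newer quasi-likelihood method, chosen after seeing the data, and 0 to 38 with 1 library left out (38 without glutamine replicate 2, 4 without vehicle replicate 5); for the members it was 0, 1 without the filter and 1 with DESeq2, Prdx1 both times. In PMN DESeq2 gave 237 genes against 0, and the members at an unadjusted p-value below 0.05 were 1 with DESeq2, 1 with limma-voom and 0 to 1 with 1 library left out. Without predicted, Rik and sensory receptor genes the log2 fold changes of Sod1 and Cat in TECs turned to 0.02029 and 0.008198, and with upper-quartile scaling that of Prdx5 in PMN to 0.03555. Leaving out 1 library gave ranges across 0 in TECs for Prdx2 (-0.1311 to 0.07071), Prdx6 (-0.1935 to 0.08016), Sod1 (-0.07184 to 0.02531), Sod2 (-0.147 to 0.2948), Sod3 (-0.0752 to 0.2754) and Cat (-0.2408 to 0.1035), and in PMN for Prdx2 (-0.2036 to 0.7459), Prdx5 (-0.2858 to 0.07058) and Sod2 (-0.5255 to 0.6517). The cause of these changes was not tested. Prdx3 and Cat in PMN got no value with a minimum of 10 counts in every library, since vehicle replicate 1 held 1 count of Prdx3 and glutamine replicate 2 held 2 counts of Cat. No paired analysis was possible because number 3 is the one replicate that vehicle and glutamine TEC labels have in common, and PMN labels carry no numbers. In PMN, omitting vehicle replicate 1 gave a median shift of -0.12 in the log2 fold changes of genes from the main fit. The median log2 fold change over all genes was 0.01434 in that fit and 0.0002008 in the main fit. Counts were low for Prdx3 in TECs (110 to 405) and 0 for Sod3 in PMN, which limits what can be seen there. Prdx3 and Cat in PMN had from 1 to 2109 counts in libraries of similar depth.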
